A study of Mus musculus with 2 samples.

Results

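The miR-15/16 family was measured through 7 of the 2202 hairpin genes in a microRNA sequencing data set of mouse hippocampus. The genes were picked by name from the annotation and not by a cut-off on their values, although earlier results of these data were known. They are Mir15a and Mir16-1 in Dleu2, Mir15b and Mir16-2 in Smc4, and Mir497, Mir195a and Mir497b on chromosome 11. All RNA came from male B6CASTF1/J mice, a cross of a C57BL/6J with a CAST/EiJ parent, at an age of 10 days, with no treatment named in the labels. There was 1 group of 2 biological replicates, each a pool labelled with 3 males, and the fragments sequenced were below 30 nt. Both replicates carry a single donor identifier but different animal numbers. Whether the spread between them is partly technical is thus not known. The values are read counts per hairpin, and the products of its 5p and 3p arms were not separated.

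MicroRNAs are cut from hairpin precursors and guide silencing complexes to transcripts that pair with their seed, the bases near the 5′ end. The miR-15/16 family is known for lowering regulators that carry cells from G1 into S phase, such as D-type and E-type cyclins, and, in human lymphocytes, the survival factor BCL2. Dleu2 is a noncoding transcript of the region often deleted in human chronic lymphocytic leukaemia, and Smc4 encodes a condensin subunit that compacts chromosomes in mitosis. In the mouse heart, miR-195 is linked to the exit of muscle cells from the cell cycle after birth. In the mouse hippocampus at this age, granule neurons of the dentate gyrus are still being born.

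The mature 5p products are shown because they define the family, with miR-497b, whose seed differs, listed last. Each is from RefSeq (GRCm38.p6), 5′ to 3′, with bases 2 to 8 in capitals.
miR-15a-5p: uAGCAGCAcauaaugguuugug
miR-15b-5p: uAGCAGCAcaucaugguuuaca
miR-16-5p: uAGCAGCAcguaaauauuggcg
miR-195a-5p: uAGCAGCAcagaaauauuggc
miR-497a-5p: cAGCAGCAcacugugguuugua
miR-497b: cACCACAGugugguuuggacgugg

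The seed AGCAGCA was found in 6 of the 7 genes, as 5 distinct 5p sequences, and pairs with UGCUGCU in a transcript. The product of Mir497b has another seed, so this gene belongs to the set by position only. Counted base by base from the 5′ end, miR-16-5p and miR-195a-5p were the most alike, with 19 of 21 bases identical. MiR-15a-5p and miR-15b-5p followed with 18 of 22 identical bases. The least alike were miR-16-5p and miR-497a-5p, with 11 of 22. Each of the 5 products was closest to one from another locus and not to that of its neighbour, with miR-497a-5p closest to miR-15a-5p (17 of 22).

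The genes lie in pairs, with positions given on mm10. Mir15a (ENSMUSG00000093007.1, chr14:61632027-61632110, minus strand) lies in an intron of Dleu2. Mir16-1 (ENSMUSG00000092995.1, chr14:61631880-61631972) follows 54 bases after it and overlaps an exon of a Dleu2 transcript in part. Mir15b (ENSMUSG00000065580.2, chr3:69009772-69009835, plus strand) and Mir16-2 (ENSMUSG00000065606.1, chr3:69009902-69009996), 66 bases apart, lie in an intron of Smc4. Mir497 (ENSMUSG00000105220.1, chr11:70234717-70234800) and Mir195a (ENSMUSG00000065411.2, chr11:70235042-70235135) lie on the plus strand 241 bases apart, with no annotated host gene on that strand. Mir497b (ENSMUSG00000070109.2, chr11:70234692-70234816) lies on the minus strand and covers all 84 bases of Mir497.

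**Figure D1:**
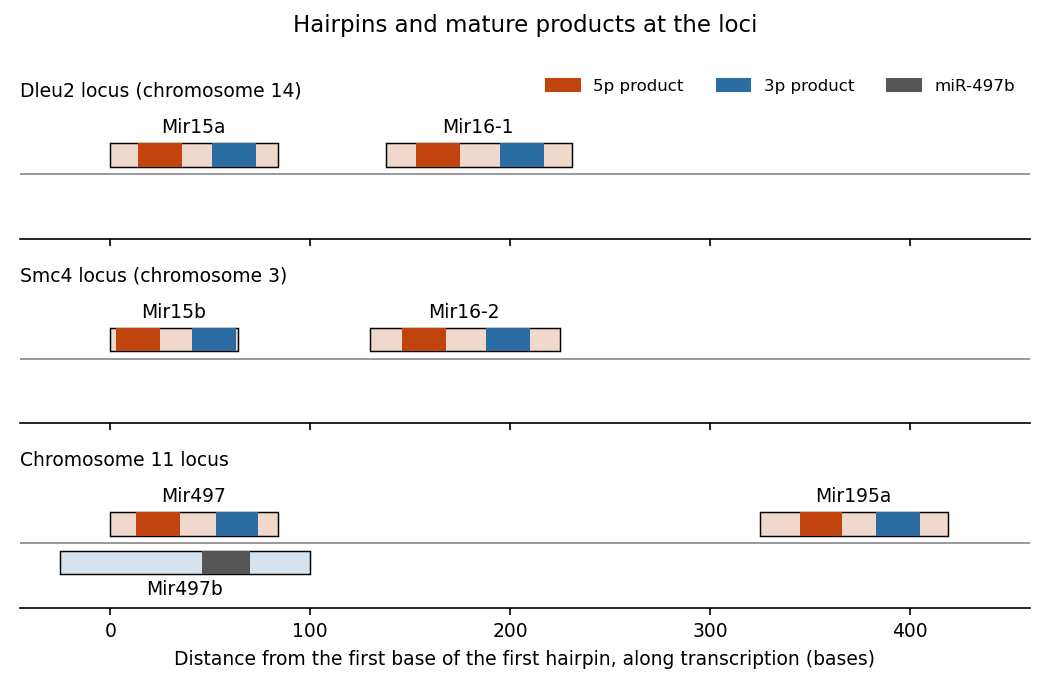
Hairpins (pale boxes) and mature products (5p in orange, 3p in blue, miR-497b in grey) of the 7 genes, drawn to scale against the distance in bases from the first hairpin of each locus along its transcription. Boxes above a line are on the strand of the locus and Mir497b, below the line, is on the other strand. The gap between neighbours is 54 bases in Dleu2, 66 in Smc4 and 241 on chromosome 11.

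Of counts on microRNA genes, the family made up 0.553% in replicate 2 (19340 of 3495401) and 0.420% in replicate 1 (20211 of 4815761), a mean of 0.486% ± 0.0945 (SD, n = 2). The exact 95% intervals ran from 0.546% to 0.561% in replicate 2 and from 0.414% to 0.425% in replicate 1. These intervals, and those below, cover counting error only. Reads that align to several places, 39.8% of all reads in replicate 2 and 37.7% in replicate 1, are outside the gene counts. In this bulk tissue, fewer cells of a type and less RNA per cell cannot be told apart.

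By mean level over both libraries, the order began with the chromosome 11 genes. Levels are in CPM, counts per 1000000 counts on genes, and a microRNA read spans a mature product, so CPM was not divided by hairpin length unless stated. Mir497 had 1836 CPM in replicate 2 (6416 counts) and 1469 CPM in replicate 1 (7073 counts), a mean level of 1652 ± 259 CPM (SD, n = 2). By uniquely assigned counts it was the highest member in both libraries, and it ranked 84 and 91 among all genes of replicate 2 and replicate 1. The counts of Mir16-1 and Mir16-2 lack the reads that fit both, so the place of miR-16 is not known. Mir195a, its neighbour, had 1629 CPM in replicate 2 (5695 counts) and 675 CPM in replicate 1 (3253 counts), a mean of 1152 ± 674 CPM (SD, n = 2). Mir15b of the Smc4 locus had 1168 CPM in replicate 2 (4083 counts) and 637 CPM in replicate 1 (3066 counts), a mean of 902 ± 376 CPM (SD, n = 2). The exact 95% intervals of Mir195a, 1587 to 1672 CPM in replicate 2 and 652 to 699 CPM in replicate 1, did not overlap. Those of Mir15b and of Mir497 did not overlap either.

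By mean level the Dleu2 genes came next. Mir15a had 579 CPM in replicate 2 (2025 counts) and 722 CPM in replicate 1 (3475 counts), a mean of 650.5 ± 100.6 CPM (SD, n = 2). Mir16-1 had 249.8 CPM in replicate 2 (873 counts) and 620 CPM in replicate 1 (2985 counts), a mean of 435 ± 262 CPM (SD, n = 2). Unlike Mir195a and Mir15b, both lay lower in replicate 2, and for both the intervals of the replicates did not overlap. For Mir15a they ran from 554 to 605 CPM in replicate 2 and from 698 to 746 CPM in replicate 1. For Mir16-1 they ran from 233 to 267 CPM in replicate 2 and from 598 to 642 CPM in replicate 1. By uniquely assigned counts, Mir16-2 was the lowest member with reads. It had 71.0 CPM in replicate 2 (248 counts) and 74.5 CPM in replicate 1 (359 counts), a mean of 72.7 ± 2.54 CPM (SD, n = 2). Its exact 95% interval ran from 62.4 to 80.4 CPM in replicate 2 and from 67.0 to 82.7 CPM in replicate 1, so the intervals overlap.

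Most neighbours in this order did not differ beyond their spread. The gaps from Mir497 to Mir195a, from Mir195a to Mir15b, from Mir15b to Mir15a and from Mir15a to Mir16-1 were smaller than the sum of the SDs of each pair. Mir15a lay below Mir195a and Mir15b in replicate 2 and above both in replicate 1. In uniquely assigned counts, the gap of 362 CPM from Mir16-1 to Mir16-2 exceeded the summed SDs of 264 CPM. Both levels lack the reads that fit both genes, and how these reads divide between them is not known. The order of Mir16-1 and Mir16-2, and the gaps that involve them, thus cannot be read from these counts. Per base of annotated hairpin, Mir497 was again highest, at a mean of 19.7 CPM per base. On that scale Mir15b, whose hairpin is annotated with only 64 bases, moved to 14.1 CPM per base, ahead of Mir195a at 12.3, while Mir16-2 had 0.766 CPM per base.

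**Figure D2:**
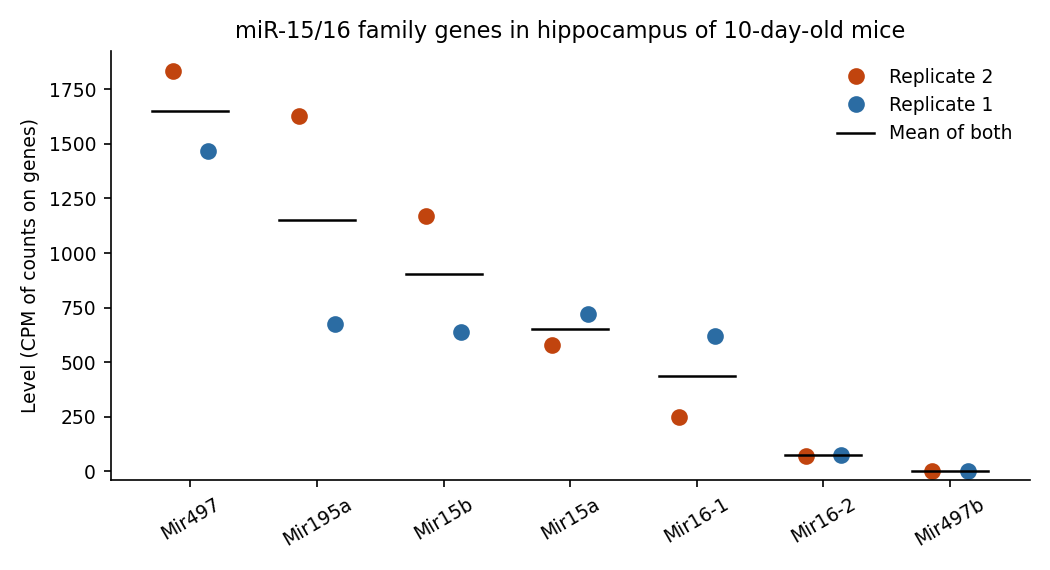
Level of each member in CPM of counts on genes (linear axis), with replicate 2 to the left of replicate 1 and a line at their mean. Mir497 is highest in both replicates, Mir195a and Mir15b are higher in replicate 2, Mir15a and Mir16-1 are lower there, and Mir497b is at 0. The levels of Mir16-1 and Mir16-2 lack the reads that fit both.

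In reads assigned to a single place, the make-up of the family therefore differed between the libraries. The chromosome 11 locus gave 62.6% of family counts in replicate 2 and 51.1% in replicate 1. The Smc4 locus gave 22.4% in replicate 2 and 16.9% in replicate 1. The Dleu2 locus gave 15.0% in replicate 2 and 32.0% in replicate 1. Of the 3 loci it was the only one with a smaller share of the family in replicate 2. Single genes differed in the same way: Mir195a gave 29.4% of family counts in replicate 2 and 16.1% in replicate 1, and Mir16-1 gave 4.51% in replicate 2 and 14.8% in replicate 1. Mir497 held close to the same share, with 33.2% in replicate 2 and 35.0% in replicate 1. The Dleu2 and Smc4 counts lack the miR-16-5p reads that fit both Mir16 hairpins, as described next. The shares of the chromosome 11 locus and its genes are thus upper limits, and how the missing reads divide between the other loci is not known.

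The mature miR-16 is made from both Mir16 hairpins, and their counts hold only part of its reads. The hairpins are printed with the stretch they share in capitals (GENCODE M21, GRCm38).
Mir16-1: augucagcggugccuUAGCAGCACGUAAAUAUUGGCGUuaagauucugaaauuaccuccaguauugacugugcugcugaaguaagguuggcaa
Mir16-2: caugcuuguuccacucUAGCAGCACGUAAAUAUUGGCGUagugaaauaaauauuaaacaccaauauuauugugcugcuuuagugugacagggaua

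The shared stretch has 23 bases and holds the whole 5p product of 22 bases plus 1 base after it. A read of miR-16-5p that ends within it fits both places equally well and is left out of the gene counts. The 3p products of the pair differ.
miR-16-1-3p: cCAGUAUUgacugugcugcuga
miR-16-2-3p: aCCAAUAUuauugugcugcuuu

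The counts of Mir16-1 and Mir16-2 can thus come from the 3p arms or from 5p reads that run past the shared bases, and the files do not separate these. Both levels are lower limits for their genes, and the place of miR-16 among the family cannot be read from them. Of all 6 members with reads, only this pair shared any stretch of 18 to 24 bases with another hairpin in the table. The counts of Mir15a, Mir15b, Mir195a and Mir497 carry no such limit among hairpins. Matches elsewhere in the genome were not analysed here.

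Mir497b and Mir497 show how the strand of the reads assigns a pair of opposite genes. Their hairpins are printed because they overlap.
Mir497: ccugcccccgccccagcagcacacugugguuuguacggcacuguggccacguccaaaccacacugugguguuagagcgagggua
Mir497b: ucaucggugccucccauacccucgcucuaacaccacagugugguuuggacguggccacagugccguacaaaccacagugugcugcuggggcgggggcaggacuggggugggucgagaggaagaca

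In the sense column, Mir497 had 6416 counts in replicate 2 and 7073 in replicate 1, and Mir497b had 0 in both. With a limit of 3 counts, the count of 0 allowed Mir497b up to 0.858 CPM in replicate 2 and 0.623 CPM in replicate 1, or 0.0468% and 0.0424% of the Mir497 counts of these libraries. In the antisense column the values were exchanged, with 6416 counts in replicate 2 and 7073 in replicate 1 listed under Mir497b and 0 under Mir497. In the unstranded column both genes had 0, since a read inside both hairpins cannot be assigned without its strand. The mature miR-497b overlaps the miR-497a-3p position by 17 bases on the opposite strand. Over the 6 members other than Mir497b, 0 antisense counts stood against 19340 sense counts in replicate 2 and 0 against 20211 in replicate 1.

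The libraries were next compared gene by gene. Each of 540 genes with at least 10 counts was tested by an exact binomial test, two-sided and scaled by library totals, and p-values were adjusted by Benjamini-Hochberg. Passing took an adjusted p below 0.05 and also a log2 ratio of 1 or more in size. All log2 ratios place replicate 2 over replicate 1, after 0.5 counts were added to each. This test compares 2 libraries of 1 group and carries counting error only, so it has no bearing on a condition. Of the 7 members 6 were tested, since Mir497b had no counts. Of these, 1 was higher in replicate 2, 1 was lower and 4 did not pass. Over all tested genes 18.7% passed, 11.5% as higher in replicate 2 and 7.22% as lower, so with 6 members the counts say little about the family as a set.

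Mir195a was the member that was higher in replicate 2, with a log2 ratio of 1.27 and an adjusted p below the smallest number the software can hold. Mir16-1 was the member that was lower in replicate 2, with a log2 ratio of -1.31 and a Benjamini-Hochberg adjusted p of 5.78e-141. The counts of Mir16-1 and Mir16-2 lack the reads that fit both, so their ratios describe uniquely assigned reads only. Mir15b had a log2 ratio of 0.88, with an adjusted p of 3.90e-143 in the binomial test, and stayed under the ratio minimum. Mir497 and Mir15a, at log2 ratios of 0.32 and -0.32 and adjusted p of 2.39e-37 and 8.40e-15 in this test, also differed by more than counting error and stayed under it. Mir16-2, at a log2 ratio of -0.07 and an adjusted p of 0.669, did not differ beyond counting error. Over the 6 members tested the log2 ratio had a median of 0.13, beside 0.17 over all tested genes. The median absolute log2 ratio was 0.60 for the members and 0.54 over all tested genes. With DESeq2 size factors in place of library totals, the median over all genes moved to 0.00094 and that of the members to -0.05. The share of passing genes that were higher in replicate 2 was 61.4% with totals, 53.1% with TMM factors and 44.4% with DESeq2 factors. Under these scalings Mir195a kept a log2 ratio of at least 1.10 and Mir16-1 one of -1.31 or lower.

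The spread between replicates was widest for Mir16-1 and Mir195a, with coefficients of variation of 60.2% and 58.5%. Mir15b had 41.6%, Mir497 had 15.7%, Mir15a had 15.5% and Mir16-2 had 3.50%. For Mir16-1 and Mir16-2 this is the spread of uniquely assigned counts, without the reads that fit both. The median over all tested genes was 26.1%, and edgeR gave 38.6% as the biological coefficient common to 427 genes with at least 10 counts in each library.

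**Figure D3:**
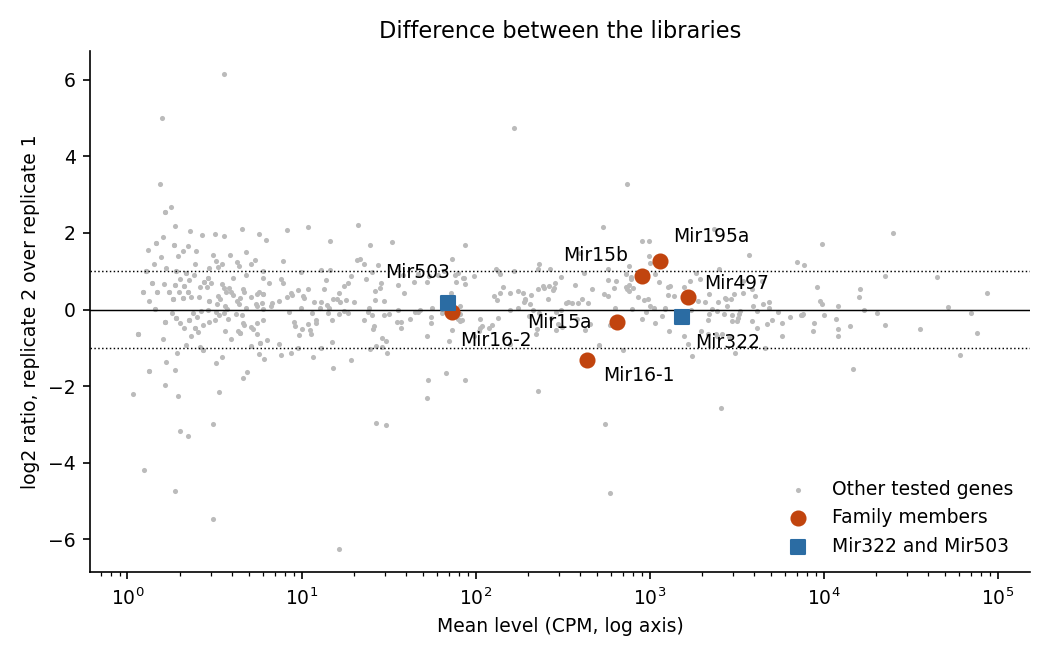
Log2 ratio of replicate 2 over replicate 1 (vertical axis) against the mean level in CPM (log axis) for all tested genes, with dotted lines at the ratio minimum. Mir195a at 1.27 lies above the upper line and Mir16-1 at -1.31 below the lower one, while the other members and Mir322 and Mir503 lie between them.

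Neighbouring genes of each locus did not keep a fixed ratio of counts. Mir15a had 2.32 counts for each count of Mir16-1 in replicate 2 and 1.16 in replicate 1. Mir15b had 16.5 counts for each count of Mir16-2 in replicate 2 and 8.54 in replicate 1. Mir497 had 1.13 counts for each count of Mir195a in replicate 2 and 2.17 in replicate 1. With the gene transcribed first on top, the ratio was thus larger in replicate 2 in Dleu2 and Smc4, by 1.99 and 1.93 times, and smaller on chromosome 11, by 1.93 times. The ratio of Mir322 to Mir503, a pair on the X chromosome described next, was 19.6 in replicate 2 and 25.5 in replicate 1, smaller in replicate 2 by 1.30 times. The counts of Mir16-1 and Mir16-2 lack the reads that fit both, so the ratios of the Dleu2 and Smc4 pairs are upper limits. Different microRNAs may be captured unequally, so a ratio is not one of molecules, and with 2 libraries the shifts were not tested.

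**Figure D4:**
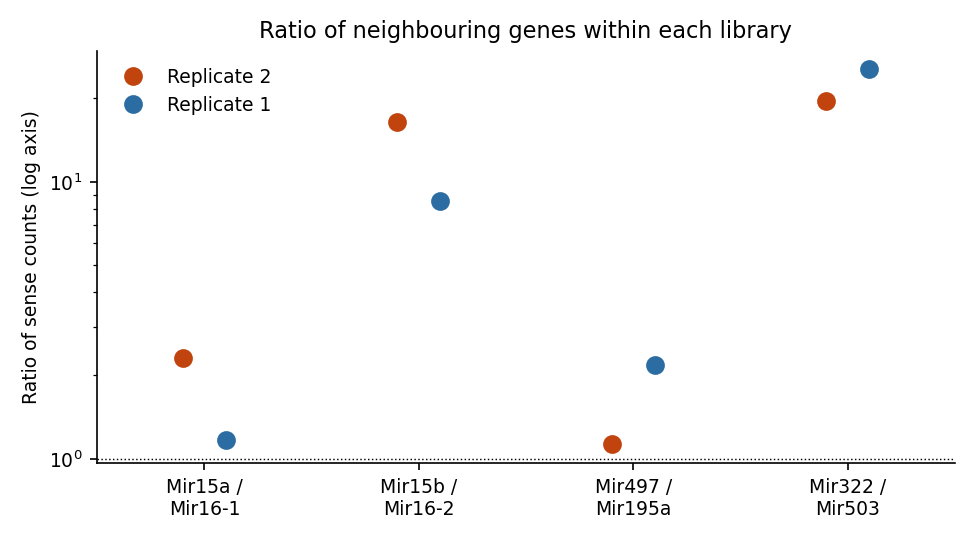
Ratio of sense counts of neighbouring genes (log axis), with replicate 2 to the left of replicate 1 and a dotted line at equal counts. Each ratio has the gene transcribed first on top, and those of the Dleu2 and Smc4 pairs are larger in replicate 2 while those of Mir497 to Mir195a and Mir322 to Mir503 are smaller there.

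Of the other mouse genes taken as relatives by their seed, only Mir322 and Mir503 on the X chromosome had reads. RefSeq lists 5 further genes with bases 2 to 8 equal to the family seed: Mir322, Mir195b, Mir6342, Mir6353 and Mir6419. Mir503, which differs at the last seed base, and Mir1907 were added by name, which made 7 relatives, and other near seeds were not searched. RefSeq held no product of Mir1907, so its seed was not compared. The products of the pair are printed to show the difference, with bases 2 to 8 in capitals.
miR-322-5p: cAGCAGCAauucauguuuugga
miR-503-5p: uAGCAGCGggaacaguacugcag

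Mir322 (chrX:53054255-53054349, minus strand), the mouse counterpart of human miR-424, had 1439 CPM in replicate 2 (5031 counts) and 1649 CPM in replicate 1 (7941 counts), a mean of 1544 ± 148 CPM (SD, n = 2). This mean lay between those of Mir497 and Mir195a, and in replicate 1 Mir322 was above every member by uniquely assigned counts. Mir503 (chrX:53053984-53054054), 200 bases from it, had 73.5 CPM in replicate 2 (257 counts) and 64.8 CPM in replicate 1 (312 counts), close to Mir16-2. Both microRNAs are known to favour cell-cycle quiescence in mouse myoblasts by lowering Cdc25a. Their log2 ratios were -0.20 and 0.18 and neither passed. Mir195b, Mir1907, Mir6342, Mir6353 and Mir6419 had 0 counts in both libraries, which by the same limit of 3 counts allows each up to 0.858 CPM in replicate 2 and 0.623 CPM in replicate 1. Mir195b shares no stretch of 18 bases or more with Mir195a.

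Beside other microRNAs linked to the cell cycle, the family was a small part of the uniquely assigned counts. A list of 27 genes that restrain proliferation, among them the let-7, miR-26, miR-29 and miR-34 genes, made up 28.0% of all counts on genes in replicate 2 and 24.6% in replicate 1. Of its 26 tested genes 6 were higher in replicate 2, 0 were lower and 20 did not pass, with a median log2 ratio of 0.52, beside 11.5% higher, 7.22% lower and a median of 0.17 over all tested genes. Its most abundant genes, Mirlet7b (99739 CPM in replicate 2 and 73844 CPM in replicate 1) and Mirlet7i (68484 and 72277 CPM in the same libraries), did not pass. A list of 18 genes that favour proliferation, including the miR-17 to miR-92 cluster and its paralogs, took 1.89% in replicate 2 and 1.70% in replicate 1. Of its 14 tested genes 1 was higher in replicate 2, 1 was lower and 12 did not pass, with a median of 0.16. Its most abundant genes were Mir93 in Mcm7, with 4872 CPM in replicate 2 and 4775 CPM in replicate 1, and Mir17, with 3492 CPM in replicate 2 and 4291 CPM in replicate 1. Several genes of these lists have copies, 13 in the first and 4 in the second, so their shares are of uniquely assigned reads.

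By level in both libraries, the genes nearest to Mir497 among those that share no stretch with another hairpin were Mir666, Mir3099 and Mir540. Their distances in log2(CPM + 1) over 2 libraries were 0.23, 0.29 and 0.38. Mir666 stood at 1895 CPM in replicate 2 and 1260 CPM in replicate 1. Mir3099, in an intron of Usp29, stood at 2124 CPM in replicate 2 and 1277 CPM in replicate 1. Mir540 stood at 1543 CPM in replicate 2 and 1210 CPM in replicate 1. Over 2 samples this is closeness of level only.

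Marker microRNAs of other cells also differed between the libraries. The counts of passing genes below stand beside 18.7% of all tested genes that passed, 11.5% as higher in replicate 2 and 7.22% as lower. The neuronal, myeloid, mural, oligodendrocyte and choroid lists had larger shares in replicate 2. The red blood cell, endothelial, and liver and striated muscle lists had smaller ones there. The 3 red blood cell genes made up 0.00764% in replicate 2 and 0.123% in replicate 1 of the counts on genes. Of these, Mir451a (41.5 CPM in replicate 2 and 1143 CPM in replicate 1) and Mir144 (6.58 CPM in replicate 2 and 54.6 CPM in replicate 1) passed, and Mir486 (28.3 CPM in replicate 2 and 31.6 CPM in replicate 1) did not. Choroid plexus and ciliated cell genes took 0.533% in replicate 2 and 0.258% in replicate 1, with 3 of 6 tested genes higher in replicate 2, beside 11.5% of all tested genes. The Mir34b, Mir34c and Mir449 genes are both on this list and on the one that restrains proliferation. Genes of the myeloid list took 0.0906% in replicate 2 and 0.0495% in replicate 1, with 2 of 4 higher, and the endothelial gene Mir126a took 0.930% in replicate 2 and 1.49% in replicate 1. Mural genes took 0.439% in replicate 2 and 0.396% in replicate 1, with 1 of 2 passing. The log2 ratio of these mural shares, 0.15, was below the median of 0.17 over all tested genes. Oligodendrocyte genes took 0.174% in replicate 2 and 0.104% in replicate 1, with 0 of 3 passing. The part of these cells in the family values was not tested. The neuronal list, which marks the tissue, took 10.1% in replicate 2 and 7.57% in replicate 1, and none of its 13 genes was at 0 in both libraries, although 10 have copies. Of its 11 tested genes 1 was higher in replicate 2 and 0 were lower. Of 6 genes of liver and striated muscle, 4 had 0 counts in both libraries. The list took 0.00641% in replicate 2 and 0.0142% in replicate 1. Of its 2 tested genes 1 was lower in replicate 2, beside 7.22% of all tested genes.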

How the data were processed

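The authors deposited raw read counts per microRNA gene, 1 table per library, made from the reads of that library on mm10 with GENCODE M21, per the notes deposited beside them. The aligner, the counter and any trimming: not given in the sources used here. Every table has an unstranded column and 2 strand columns, and the strand column with the larger total was taken as sense. The lines of totals stayed out of library sizes. They showed 34.6% of 10106239 reads on genes in replicate 2 and 38.9% of 12369585 reads in replicate 1.

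All 2202 identifiers matched GENCODE M21, which gave symbols, positions, hosts and hairpins, while mature sequences came from RefSeq (GRCm38.p6). A copy was a stretch of at least 20 shared bases. CPM, Clopper-Pearson intervals, a floor of 3 counts for 0 and the exact binomial test were computed from the sense counts. Loss of reads from CAST/EiJ alleles was not analysed here. On Poisson counts simulated for replicate 2 against replicate 1 the test passed 88 of 100 genes made 4-fold different, 5 of 97 made 1.5-fold different and 1 of 351 left unchanged. A 1.5-fold change lies under the ratio minimum, so such genes could pass only through counting error. The simulated counts held counting error only and no spread between replicates, so they do not give the error rate in these libraries.

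The members and lists were chosen with earlier results of these data known. Named were all members and seed relatives, the 2 most abundant genes of each cell-cycle list, the red blood cell genes and the 3 genes nearest to the highest member. Mir126a was named as the only gene of its list. Pair ratios were planned with Mir195a over Mir497, and the order of transcription was taken after the values were seen. Alternatives covered scaling, filters, the ratio minimum, counts added, the unstranded column, the denominator, hairpin length and each replicate left out. Scaling used edgeR 4.0.16 and DESeq2 1.42.0 in R 4.3.3. All else used SciPy 1.17.1, pandas 2.3.3 and numpy 2.4.6 in Python 3.11.15.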

Additional observations from a re-analysis of the deposited data

How the results depend on the processing

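The 2 members that passed, Mir195a and Mir16-1, also passed with TMM factors, DESeq2 size factors, unstranded counts and both other filters on counts, and their ratios stayed past the minimum with 5 counts added. Without a ratio minimum 5 of the 6 tested members passed, and 301 of 540 genes did in place of 101. With at least 50 counts 67 of 359 genes passed. The family share was 0.342% with unstranded counts, where Mir497 has 0 because its reads also fit Mir497b, and 0.177% of all reads. Leaving out each replicate gave a share of 0.420% to 0.553%, a ratio of 1.16 to 2.32 for Mir15a over Mir16-1, 8.54 to 16.5 for Mir15b over Mir16-2 and 0.460 to 0.888 for Mir195a over Mir497. Of 4 further values that moved, 2 were the places of Mir15b and Mir195a per base of hairpin and 2 were unstranded levels, 0 CPM for Mir497 and 77.3 CPM for Mir16-2. No ratio of a member reversed. A log2 ratio of Mir497 could not be had from unstranded counts, nor a comparison of libraries with 1 replicate left out. No paired analysis was possible because there is 1 group. With 2 libraries, the replicate spread rests on a single difference, and it limits the order of levels more than depth does.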

Other observations

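The letters of the family seed also occur 1 base nearer the 5′ end in the miR-103 and miR-107 products of the Pank genes. They are shown with these letters, bases 1 to 7, in capitals.
miR-103-3p: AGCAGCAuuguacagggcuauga
miR-107-3p: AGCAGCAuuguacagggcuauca

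Mir107, in an intron of the pantothenate kinase gene Pank1, had 3112 CPM in replicate 2 (10877 counts) and 3396 CPM in replicate 1 (16352 counts). Its mean of 3254 ± 201 CPM (SD, n = 2) lay above that of every family member by uniquely assigned counts. Mir103-2 in Pank2 stood at 48.6 CPM in replicate 2 and 62.5 CPM in replicate 1, and Mir103-1 in Pank3 at 8.30 and 11.8 CPM in the same libraries. These 3 genes share stretches of at least 20 bases with each other, so their counts hold only uniquely assigned reads. None passed the comparison of libraries. Mir6340, with the letters at bases 4 to 10, had 0 counts in both. These genes were chosen after the values of the family were seen.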
